A study of Danio rerio with 8 samples.

Results

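The genes described here make, lengthen, desaturate and store fatty acids in the liver: fasn, acaca, scd, scdb, fads2, elovl2, elovl5, elovl6, srebf1 and dgat2. Array probes were assigned to them through the accession printed with each probe, and 9 of the 10 genes had at least 1 probe. No probe was assigned to fasn, the fatty acid synthase gene, so it was not analysed here. The 9 genes carried 23 of the 43603 probes. They were compared with 13443 named genes in all. Of the 23 probes, 18 were well above background on all 8 arrays, 2 on some of them and 3 on none.

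Liver RNA of adult male zebrafish (Danio rerio, 3 months old) was hybridised to one-colour Agilent oligonucleotide arrays. The control fish were untreated, and their labels also give 96 h. The other fish were kept for 96 h in surface water from 1 of 7 sites. H1 to H5 lay on the mainstream of the Hun River, and D and X on tributaries. The source names of D and X give 97 h and their descriptions 96 h. Each array held RNA pooled from the livers of 5 fish. The labels name no mutation or transgene in any group. There was 1 array per group in the data analysed here, so no difference has a replicate check, no error between fish can be given, and no p-value is given. A difference between 2 arrays is a statement about 2 pools of livers. The only error that can be measured is that between repeated spots of a probe within an array. Its SD was 0.13 to 0.32 on the log2 scale over 20 to 25 probes, which gives 0.30 to 0.42 for the difference of a site and the control.

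Hepatocytes build fatty acids from acetyl-CoA. Acetyl-CoA carboxylase (acaca) makes malonyl-CoA, fatty acid synthase joins it into palmitate, and Elovl6 lengthens palmitate toward stearate. Stearoyl-CoA desaturases (scd, scdb) then set a double bond and give monounsaturated fatty acids. Fads2 with Elovl5 and Elovl2 forms a separate branch, which turns dietary polyunsaturated fatty acids into long-chain omega-3 and omega-6 products; the zebrafish Fads2 enzyme is known to act as both a delta-5 and a delta-6 desaturase. The transcription factor SREBP-1 (srebf1) activates many of these genes in vertebrate liver when carbohydrate and insulin are plentiful, and Dgat2 joins fatty acids into triglyceride.

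The share of spots well above background ran from 56.5% to 70.8% over the arrays, and no spot was saturated. The control, H1, H2 and D arrays lay on slide 1 and the H3, H4, H5 and X arrays on slide 2. The labelled tissue carried its markers: 11 of 11 hepatocyte markers with a probe were well above background on every array, and their summed signal lay between 1333040 (H4) and 1567240 (D). RNA of neighbouring organs was also present and differed between arrays. The summed signal of 10 intestine markers was 411154 in the control, 411053 at H4, 403226 at H5 and 335085 at H2. It was 145876 at H1, 136927 at H3, 92375 at X and 64436 at D. The gene apoa4b.1 alone gave 131129 of it at H3, 88604 at X and 61761 at D, and 105185 in the control. The intestinal chitinase chia.1 had a signal of 85425 in the control, 361 at H3, 87.5 at D and 65.5 at X. The summed signal of 13 exocrine pancreas markers ran from 1301750 (control) to 141349 (H3), and that of 7 endocrine pancreas markers from 144115 (H4) to 6646 (X). The summed signal of 8 testis markers was 893 in the control, 3650 at H3, 6119 at H5 and 19379 at H4, and between 752 and 1554 on the other arrays. In pooled liver, fewer cells of a type and less RNA per cell cannot be told apart.

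The largest difference among the fatty acid genes was that of elovl6. At tributary D its 2 probes were 6.93 and 9.41 fold lower than in the control, and at tributary X 3.47 and 4.03 fold lower. At the mainstream sites elovl6 lay between -0.05 (H5) and 1.02 (H2) on the log2 scale. The elongases elovl2 and elovl5 lay above the control at H1, H2, H3 and H5, and elovl2 also at tributary X (0.41). The desaturase gene scd was 3.38 fold lower at H4 alone, and srebf1 stayed within 0.32 of the control on the log2 scale at all 7 sites. All differences are log2 signal at a site minus log2 signal in the control after quantile normalization, and a gene value is the mean over its probes that stood well above background in the site or the control.

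A gene counted as higher or lower when it differed at least 2 fold from the control, or 3 fold at D, the fold sizes of the study. The study asked for 2 fold on both of 2 arrays at the sites other than D. Here each site was called from 1 array, a looser rule at those sites. At H1 1 of 8 measured genes was higher (elovl2) and 0 were lower, where 7.61% of all 10669 genes measured were higher, 10.8% lower and 18.4% either. At H2 2 of 8 were higher (elovl5, elovl6) and 0 lower, against 3.14% higher, 5.18% lower and 8.32% either among 10406 genes. At H3 3 of 8 were higher (elovl2, elovl6, dgat2) and 0 lower, against 9.97% higher, 12.6% lower and 22.6% either among 10657 genes. The 2 genes called at H2 lay at 1.00 and 1.02, just past the threshold of 1.00, and at H3 elovl6 lay at 1.00 and elovl2 at 1.02. They differ from genes just below the threshold by less than the error within an array.

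At H4 1 of 9 was higher (scdb) and 1 lower (scd), against 9.12% higher, 6.37% lower and 15.5% either among 10869 genes. At H5 0 of 9 passed, where 5.58% of 10622 genes were higher, 4.98% lower and 10.6% either. At D 1 of 9 was higher (scdb) and 1 lower (elovl6), against 4.82% higher, 6.67% lower and 11.5% either among 11459 genes. At 2 fold the same 2 genes passed at D, where 12.8% of genes were higher, 12.3% lower and 25.1% either. At X 0 of 8 were higher and 1 was lower (elovl6), against 6.61% higher, 10.2% lower and 16.8% either among 10804 genes. The gene scdb entered these counts only at H4, H5 and D, where it was well above background and the control was not, so it had to be higher there. With 8 or 9 genes measured, the counts say little against these shares.

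The median log2 difference of the measured members was 0.31 at H1, 0.20 at H2, 0.72 at H3, -0.18 at H4, 0.17 at H5, -0.18 at D and 0.03 at X. Over all named genes it was 0.05, 0.02, 0.08, -0.01, -0.00, 0.15 and 0.09 in the same order. Without scdb, which was measured only where it was high, the median was -0.25 at H4, 0.07 at H5 and -0.37 at D. The members lay farthest above all genes at H3, and below them at D and H4 with or without scdb. At X, where scdb was not measured, the 2 medians were close (0.03 against 0.09). At all 7 sites some members lay above the control and others below it.

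**Figure D1:**
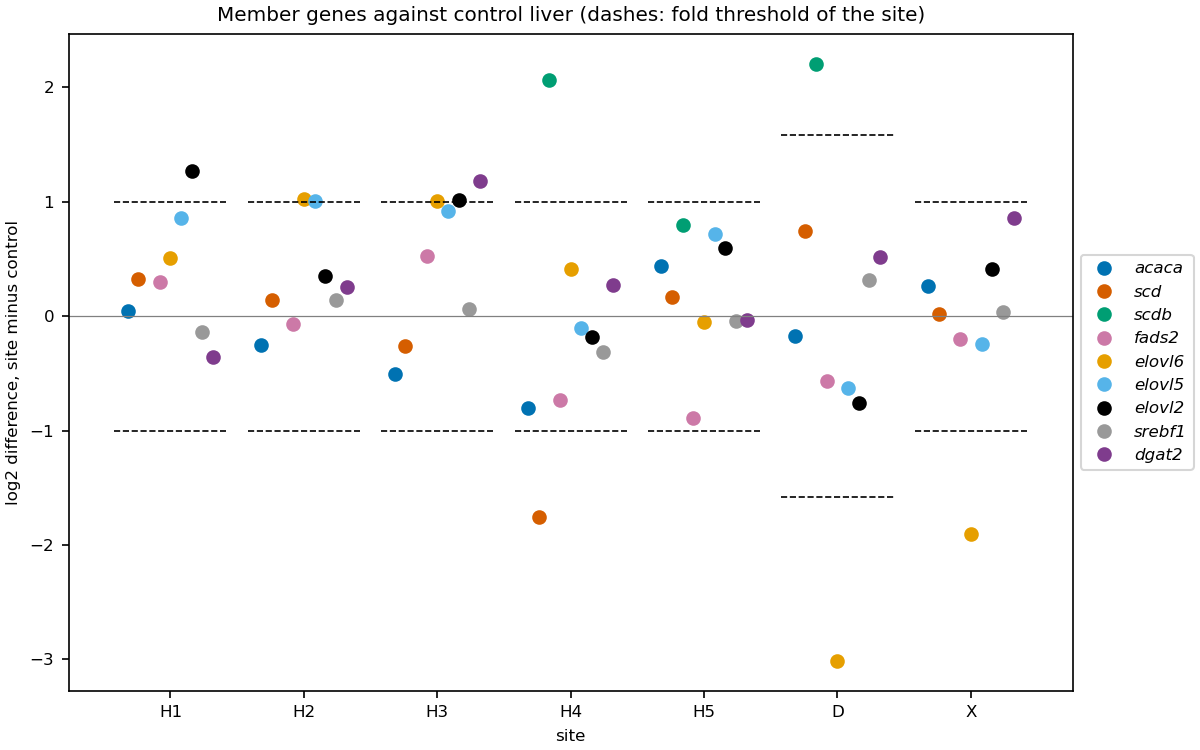
Log2 difference from the control (vertical axis) of each fatty acid gene (coloured points) at each site (horizontal axis), with dashed lines at 2 fold, or 3 fold at D, and 1 array per site and no error bars. The points of elovl6 at D (-3.01) and X (-1.90) and of scd at H4 (-1.76) lie below the dashes, and scdb, dim in the control, has points at H4, H5 and D only.

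Acetyl-CoA carboxylase catalyses the committed step of fatty acid synthesis, and its gene acaca was lowest at H4. The brighter acaca probe had a log2 signal of 12.36 in the control, 12.69 at H1, 12.15 at H2, 11.85 at H3, 11.30 at H4, 13.01 at H5, 12.34 at D and 12.80 at X. The second probe had 9.98 in the control, 9.74 at H1, 9.69 at H2, 9.49 at H3, 9.44 at H4, 10.20 at H5, 9.64 at D and 10.07 at X. Both probes put H4 lowest and H5 highest, and they followed each other with r = 0.86 over 8 arrays. The gene value ran from -0.80 at H4 to 0.43 at H5, and no site passed the threshold. At H4 the brighter probe alone was 2.08 fold lower. The last of its probes stayed at background throughout. For the second probe no gap between neighbouring arrays was larger than the error of repeated spots.

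The stearoyl-CoA desaturase scd was lowest at H4. Its informative probe had a log2 signal of 9.69 in the control, 9.41 at H1, 9.83 at H2, 9.42 at H3, 7.93 at H4, 9.85 at H5, 10.43 at D and 9.71 at X. H4 stood 1.49 below the next array of its own slide, while the arrays from H1 through H3, control, X, H2 and H5 in this order differed from their neighbours by less than the error of repeated spots. D was the highest, 0.74 above the control, which is short of the threshold. A second scd probe was well above background at H1 alone, with 7.26 and at least 1.52 fold above the control. The gene value at H1 (0.33) averages both probes and has the opposite sign to the first probe alone (-0.28).

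The paralogue scdb, another stearoyl-CoA desaturase, was a dim gene. Its probe was not well above background in the control, H1, H2, H3 and X, where the log2 signals were 6.54, 4.55, 4.58, 6.57 and 4.99. It was well above background at H4 (8.60), H5 (7.33) and D (8.74). Against the lowest signal that counts as measured, scdb was at least 3.85 fold higher at H4 and 4.25 fold at D. At H5 the bound was 1.60 fold. At H4 the 2 desaturase genes therefore differed from the control in opposite directions. A second scdb probe stayed at background throughout. Whether the scd and scdb probes share signal was not tested. At H4, where 6 of 8 testis markers passed as higher, and at H5 the testis signal was high as well, while at D it was 1554. The part of other tissues in the scdb signal was not tested. With each probe centred on its slide, the difference at H4 was 0.67.

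The desaturase fads2, the entry step for long-chain polyunsaturated fatty acids, was among the strongest signals and carried 7 probes. The brightest had a log2 signal of 16.85 in the control, 17.16 at H1, 16.84 at H2, 17.01 at H3, 16.43 at H4, 16.31 at H5, 16.18 at D and 16.64 at X. The dimmest had 11.44 in the control, 11.84 at H1, 11.06 at H2, 12.05 at H3, 9.58 at H4, 10.02 at H5, 10.56 at D and 11.05 at X. Every one of the 7 probes put H4, H5 and D below the control. The second probe spanned 0.37 over the 8 arrays and so hardly moved. The probes correlated with each other at r = 0.72 to 0.99 over the 8 arrays. The gene value was 0.30 at H1, -0.07 at H2, 0.53 at H3, -0.74 at H4, -0.89 at H5, -0.57 at D and -0.20 at X, and none passed the threshold.

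The elongase elovl6, which lengthens palmitate, had 2 probes that gave the same pattern (r = 0.99). The brighter probe had a log2 signal of 15.08 in the control, 15.53 at H1, 15.98 at H2, 15.90 at H3, 15.52 at H4, 15.18 at H5, 12.29 at D and 13.28 at X. The other had 13.30 in the control, 13.88 at H1, 14.44 at H2, 14.49 at H3, 13.69 at H4, 13.10 at H5, 10.07 at D and 11.29 at X. Both tributary arrays lay below all 6 others on both probes, with D below X by more than the error of repeated spots, and H2 and H3 were the highest. The gene value was 0.51 at H1, 1.02 at H2, 1.00 at H3, 0.41 at H4, -0.05 at H5, -3.01 at D and -1.90 at X.

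Each slide held 1 of the low arrays. On slide 1 D was 2.79 and 3.23 below the next lowest array on the 2 elovl6 probes, and on slide 2 X was 1.89 and 1.81 below the next lowest. The low elovl6 arrays were also those with the least intestine and endocrine pancreas signal. At H3 chia.1 and the exocrine pancreas markers were low too, and elovl6 there was 2.01 fold higher than in the control. The summed endocrine pancreas signal was 24205 at H3, 8054 at D and 6646 at X. The summed hepatocyte markers were 1567240 at D, 1365060 at X and 1401190 in the control. The part of the cell mixture in the elovl6 difference was not tested.

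**Figure D2:**
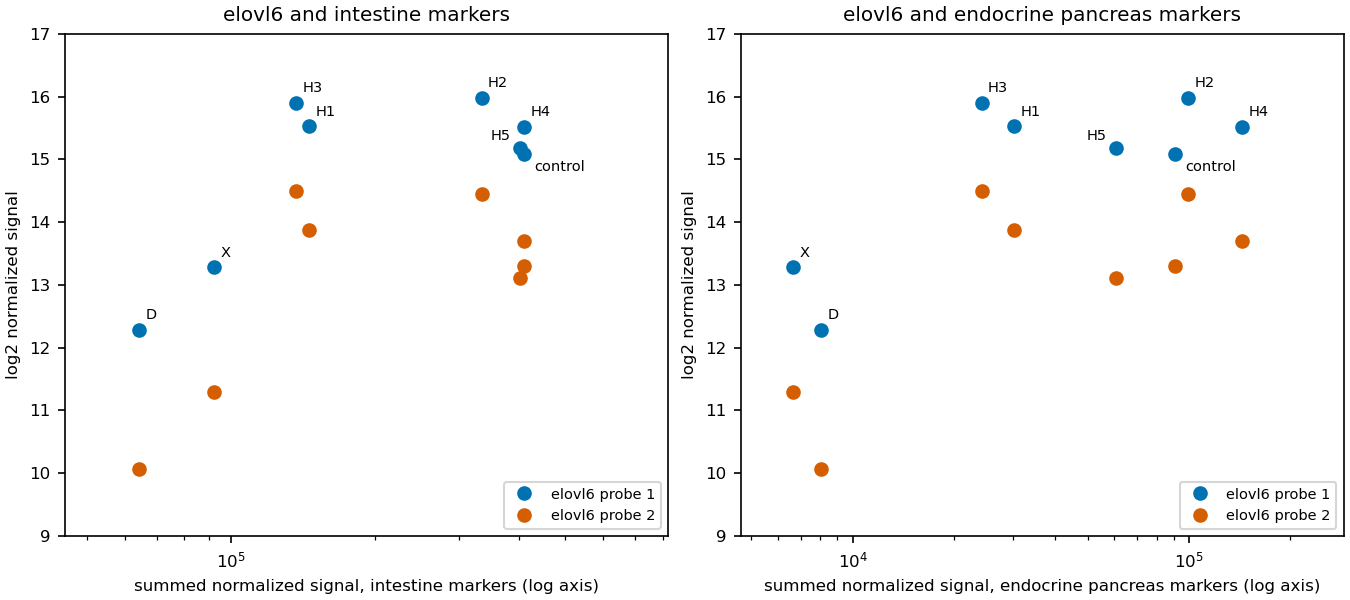
Log2 signal of both elovl6 probes on the 8 arrays (vertical axis) against the summed normalized signal of the intestine markers (left) and of the endocrine pancreas markers (right), on log horizontal axes, with the arrays named at the brighter probe. D and X are lowest in elovl6 and in intestine signal, and H3, with 136927 in intestine signal, has 15.90 on the brighter probe. Most of the intestine signal at H3 (131129), X (88604) and D (61761) is that of apoa4b.1.

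The elongase elovl2, which acts on long polyunsaturated chains, had 1 probe. Its log2 signal was 13.78 in the control, 15.05 at H1, 14.13 at H2, 14.80 at H3, 13.60 at H4, 14.37 at H5, 13.02 at D and 14.19 at X. H1 and H3 were highest and did not differ beyond the error of repeated spots, and D was lowest. Against the control elovl2 was 2.41 fold higher at H1 and 2.02 fold higher at H3, and its value at D was -0.76. With the median of the other arrays in place of the control, the differences were 0.92 at H1 and 0.67 at H3, short of the threshold.

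The elongase elovl5, which acts on shorter polyunsaturated chains, had 3 probes that disagreed at the tributaries. The brightest had a log2 signal of 14.94 in the control, 15.51 at H1, 15.31 at H2, 15.31 at H3, 15.33 at H4, 15.08 at H5, 14.80 at D and 15.22 at X. The second had 12.63 in the control, 13.65 at H1, 13.72 at H2, 13.74 at H3, 12.52 at H4, 13.43 at H5, 12.73 at D and 12.68 at X. The dimmest had 11.55 in the control, 12.53 at H1, 13.10 at H2, 12.83 at H3, 10.97 at H4, 12.76 at H5, 9.71 at D and 10.51 at X.

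All 3 elovl5 probes were above the control at H1, H2, H3 and H5, the brightest at H5 by 0.14, within the error of repeated spots. At H4 the 3 probes differed from the control by 0.39, -0.12 and -0.58. At D the 3 probes differed from the control by -0.14, 0.10 and -1.84, and at X by 0.28, 0.04 and -1.04, so only the dimmest was lower at the tributaries by more than the error of repeated spots. The mean of the 3 was 0.86 at H1, 1.00 at H2, 0.92 at H3, -0.10 at H4, 0.72 at H5, -0.63 at D and -0.24 at X. The brightest probe alone gave 0.37 at H2, where the mean passed the threshold. Which transcript each probe reads was not examined here.

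The transcription factor gene srebf1 was nearly level. Its informative probe had a log2 signal of 8.90 in the control, 8.76 at H1, 9.04 at H2, 8.96 at H3, 8.59 at H4, 8.86 at H5, 9.22 at D and 8.93 at X. No gap between neighbouring arrays in this order of levels exceeded the error of repeated spots. The lowest (-0.31) and highest (0.32) differences, at H4 and D, fell at the same sites as those of scd. Both lay within the error of repeated spots for a difference from the control (0.33 at H4 and 0.42 at D). The array reads the transcript only, and SREBP-1 is controlled by cleavage of the protein as well. The other srebf1 probe stayed at background throughout.

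The triglyceride synthesis gene dgat2 had 1 probe. Its log2 signal was 11.41 in the control, 11.06 at H1, 11.66 at H2, 12.60 at H3, 11.68 at H4, 11.38 at H5, 11.93 at D and 12.27 at X. H3 and X were highest, and H1 was lowest. Against the control dgat2 was 2.27 fold higher at H3, and 0.86 higher at X on the log2 scale, which is short of the threshold. The value at H3 was 0.74 with slide centring and 0.93 against the median of the other arrays.

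**Figure D3:**
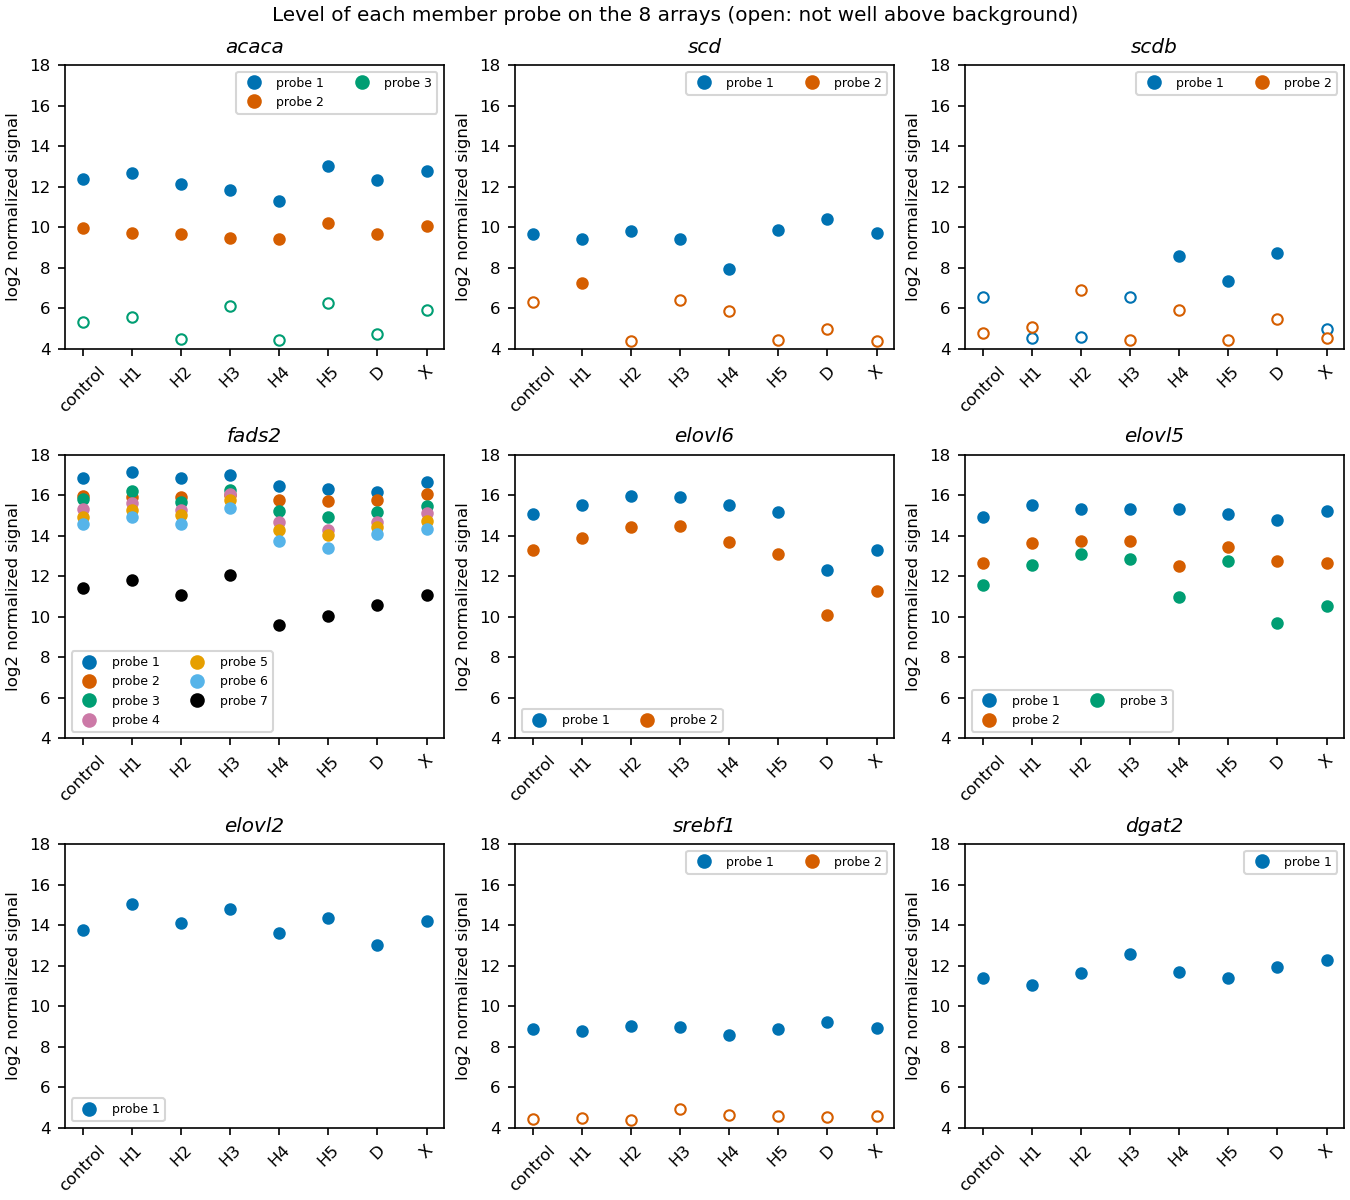
Quantile normalized log2 signal (vertical axis) of every probe of the 9 genes on the 8 arrays (horizontal axis), with open points where a probe was not well above background. Both elovl6 probes dip at D and X, the informative scd probe dips at H4, and the 7 fads2 probes are low at H4, H5 and D.

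The members did not move as one group. As descriptions over 8 arrays that share a normalization, scd and srebf1 correlated with r = 0.88, elovl5 and elovl6 with r = 0.83, elovl2 and elovl5 with r = 0.82, and acaca and scd with r = 0.64. All srebf1 differences from the control lay within the error of repeated spots. The values of elovl6 and srebf1 correlated with r = -0.53, and those of elovl6 and scd with r = -0.49. For elovl6, D was the lowest array on both probes. For elovl5, D was lowest on the mean and on the brightest and dimmest probes, on the brightest within the error of repeated spots. The second elovl5 probe was lowest at H4.

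Among 8646 genes with a probe well above background on all 8 arrays, the pattern closest to that of elovl6 was that of pla2g6, a phospholipase gene (r = 0.97). It was followed by spire1a (0.97), dhrs4 (0.96), tcea1 (0.95) and arcn1b (0.95). At D pla2g6 differed from the control by -1.65, spire1a by -1.50 and dhrs4 by -0.78, and at X by -0.73, -1.52 and -0.31. These genes were picked for following elovl6 over the same 8 arrays, so lower values at D and X come with the choice. Their differences were smaller than those of elovl6, and that of dhrs4 at X lay within the error of repeated spots (0.35). For elovl5 the closest, picked in the same way, was pla2g12a (r = 0.98), a secreted phospholipase gene. It was 1.30 higher at H1, 1.41 at H2 and 1.66 at H3.

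The other genes of the pathway were taken from a list written by role. It holds 61 genes, of which 45 had a probe. The number past the threshold was 4 higher and 7 lower of 43 measured at H1 (25.6%, against 18.4% of all genes in either direction), and 3 and 6 of 44 at H2 (20.5% against 8.32%). It was 6 and 7 of 43 at H3 (30.2% against 22.6%), 1 and 4 of 43 at H4 (11.6% against 15.5%), and 1 and 1 of 43 at H5 (4.65% against 10.6%). At D and X it was 1 and 7 of 43 (18.6%), against 11.5% at D and 16.8% at X. The median difference over these genes was -0.59 at D, and lay between -0.19 and 0.08 at the other sites.

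Among genes that supply acetyl-CoA, aclya, an ATP citrate lyase that splits citrate to acetyl-CoA, was higher at 3 mainstream sites. Its brighter probe had a log2 signal of 12.75 in the control, 13.67 at H1, 14.23 at H2, 14.51 at H3, 13.94 at H4, 12.72 at H5, 12.14 at D and 12.83 at X. The gene was 2.11 fold higher at H1, 3.03 fold at H2 and 3.81 fold at H3, and differed by 0.83 at H4, 0.06 at H5, -0.28 at D and 0.06 at X. At H1 the brighter probe alone was 1.89 fold higher, short of the threshold. Against the median of the other arrays aclya at H1 was 0.97, also short. At H4 the brighter probe alone was 2.28 fold higher. The citrate carrier gene slc25a1a was 2.89 fold higher at H3. With acss2l, all 3 measured genes of this group passed as higher at H3, where 9.97% of all genes did. With slide centring acss2l at H3 was 0.55, short of the threshold, while slc25a1a (1.29) and aclya (2.01) still passed.

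The last gene of the group, acss2l, by name a member of the acetyl-CoA synthetases, went opposite ways at different sites. It was 1.91 higher at H3 on the log2 scale, with both probes well above background on both arrays. At H4 neither probe was well above background, and they were at least 1.90 and 1.57 fold lower than the control. On its first probe the log2 signal was 7.53 in the control, 9.42 at H3 and 5.21 at H4.

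The mid1ip1 and thrsp genes code for small proteins of the Spot 14 family, of which the mammalian Mid1ip1 protein is known to bind acetyl-CoA carboxylase. The gene mid1ip1l was lower on all 3 probes at H1 (-1.87), H2 (-1.34) and H3 (-1.50), and its value was 0.49 at D. The gene mid1ip1a, with 1 probe, was not well above background at H3 and H5, where it was at least 2.29 and 2.43 fold lower. With slide centring it was short of the threshold at both (-0.87 and -0.43). At H5 it was also short with normexp (-0.83) and against the median of the other arrays (-0.98). The gene mid1ip1b went the other way at H1. Its brighter probe had a log2 signal of 12.91 in the control, 14.86 at H1, between 12.96 and 13.33 at H2 to H5, 12.13 at D and 11.34 at X, with H1 highest and X lowest. Over its 2 probes it was 3.58 fold higher at H1 and 3.47 fold lower at X. The gene thrsp, with 1 probe, was lower at H2 (-1.64) and passed at no other site.

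For NADPH supply, the brighter probe of the malic enzyme gene me3 was lower at H1 (-2.31), H3 (-2.81), D (-2.02) and X (-2.14). The second me3 probe was dim at H1 and H3, and differed by -1.10 at D and -0.02 at X, so the probes disagreed at X. The me3 gene value at D was -1.56, just short of 3 fold. The gene pgd, of the pentose phosphate pathway, was lower at H3 (-1.08) and X (-1.01), just past the threshold. With slide centring these were -0.57 and -0.50.

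The elongase elovl1a, which by homology with the mammalian enzyme acts on saturated very long chains, was higher where elovl6 was lower. Its single probe had a log2 signal of 7.10 in the control, 7.52 at H1, 7.24 at H5, 9.81 at D and 9.98 at X, and was not well above background at H2 (6.65), H3 (6.67) and H4 (5.93). The tributary arrays lay above all others. The difference was 2.71 at D and 2.88 at X, and at H4 the gene was at least 1.41 fold lower. At D and X, elovl6 and elovl1a thus differed from the control in opposite directions.

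Of the other elongases, elovl1b and elovl8b had probes well above background on all arrays, and their gene values passed the threshold at no site. The elovl1b probes disagreed at H3, where the brightest differed by -1.44 and the third by 1.21. At X elovl8b was just short of the threshold (-0.99). The remaining elongases of the list were dim. The informative elovl4a probe was 1.20 higher than the control at H4 and at least 2.41 fold lower at D, a bound that is short of 3 fold. The elovl4a value at H4 was 0.64 with normexp, 0.74 with no filter and 0.47 with slide centring, short of the threshold. The elovl8a probe was well above background at H2 alone, at least 2.11 fold above the control.

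Elongation and desaturation also need partner enzymes. The reductase gene hsd17b12a was lower at 6 of 7 sites, with a log2 difference of -1.77 at H1, -1.23 at H2, -1.16 at H4 and -1.85 at D. Its probe was too dim at H3 and X, where it was at least 6.33 and 9.13 fold lower, and its value at H5 was 0.08. Against the median of the other arrays hsd17b12a was higher at H2 (0.53) and H4 (0.60), and short of the threshold at H1 (-0.53) and D (-0.61). At D it was also short of 3 fold with 75th percentile normalization and the authors' values (-1.57 each), normexp (-1.21) and no filter (-0.89). With normexp H2 (-0.72) and H4 (-0.54) fell short too, as did H4 with slide centring (-0.59). At H3 and X it passed under every alternative that measured it. Its paralogue hsd17b12b passed the threshold at no site. The dehydratase gene hacd4, with 1 probe, had a log2 difference of -4.14 at D (6.79 against 10.93) and 0.42 at X.

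The cytochrome b5 reductase gene cyb5r2, whose family passes electrons to the desaturases, had log2 signals of 13.28 in the control, 11.17 at H1, 12.04 at H2, 10.27 at H3, 12.65 at H4, 13.06 at H5, 9.94 at D and 10.35 at X. D, X and H3 were lowest and H4 and H5 nearest the control. Against the median of the other arrays, H2 was 0.87 higher. In the same group cyb5b was 2.09 higher at H1.

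For SREBP processing, insig1, whose product retains the SREBP complex in the endoplasmic reticulum and which is a known SREBP target, was lower at D on all 3 probes. The brightest had 11.33 in the control, 10.71 at H1, 11.75 at H2, 11.55 at H3, 11.19 at H4, 11.17 at H5, 9.35 at D and 11.80 at X. The mean difference of its 3 probes was -1.91 at D and 0.27 at X, so the tributaries differed here. With normexp the value at D was -1.43, short of 3 fold. The related insig2 was 1.29 higher at H3.

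In glycerolipid assembly, plin2, which coats lipid droplets, had the highest differences of the list at H1, H3 and H5. Its brighter probe had a log2 signal of 11.12 in the control, 13.88 at H1, 12.51 at H2, 13.47 at H3, 10.67 at H4, 12.11 at H5, 8.83 at D and 11.01 at X. H1, H3, H2 and H5 were above the control, and D below it. The mean of its 2 probes was 3.72 at H1, 2.07 at H2, 3.24 at H3 and 1.65 at H5, and -1.51 at D, which is just short of 3 fold. The brighter probe alone was 0.996 at H5, just short of the threshold. At H1 all 5 adipocyte markers with a probe lay above the control and 3 passed as higher. Only 2 of the 5, cidec and fabp4a, were well above background in the control, and they differed by 0.39 and 0.10 at H1. The 3 that passed were measured only because they were bright at H1, so they had to be higher. The summed signal of the 5 was the highest of the 8 arrays (30435 against 19446 in the control), with 5917 of it from lepa. The next highest sums were 24513 at H5 and 24460 at H2, where lepa gave 26.4 and 25.9. The higher sum at H1 thus came largely from lepa, and whether lepa marks adipocytes in these livers was not tested. At H3, where plin2 was also high, the summed signal was 11996. The part of adipocyte RNA in the plin2 difference was not tested.

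The phosphatidate phosphatase gene lpin1a was lower at H1 (-2.53), H2 (-2.43) and H4 (-2.38), on all 3 of its probes. At H3 the probes differed from the control by 0.08, 0.01 and -1.81 and did not agree. The triglyceride synthesis gene dgat1a was lower at H1 (-1.43), D (-1.73) and X (-1.92), while dgat2 was not lower at D or X. Against the median of the other arrays dgat1a was -0.95 at H1 and -1.25 at D, short of the threshold at both. The 2 probes of the monoacylglycerol acyltransferase gene mogat2 were both below the control at H1, H3, D and X but differed in size. The brighter differed by -1.54 at H1, -1.66 at H3, -0.82 at D and -1.39 at X, and so was short of the threshold at D. The other was -3.99 at H1. At H3, D and X it was not well above background, and at least 19.3, 47.6 and 27.8 fold lower.

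The sites at which mogat2 and cyb5r2 were lowest, H1, H3, D and X, are those with the least intestine marker signal, and mogat2 is best known from the intestine in mammals. The genes hsd17b12a, me3 and dgat1a were also low at several of them. Of the intestine list, 9 of 10 genes at H1, 8 at H3, 8 at D and 9 at X were past the threshold as lower, against 3 at H2 and 0 at H4 and H5. H1, H3, D and X also had the least exocrine pancreas, endocrine pancreas and skeletal muscle marker signal. The exocrine pancreas sum was 141349 to 443307 there, and 683669 or more on the other arrays. The endocrine pancreas sum was 6646 to 30141 there, and 60512 or more on the others. The part of RNA of any of these tissues in the differences of these 5 genes was not tested.

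**Figure D4:**
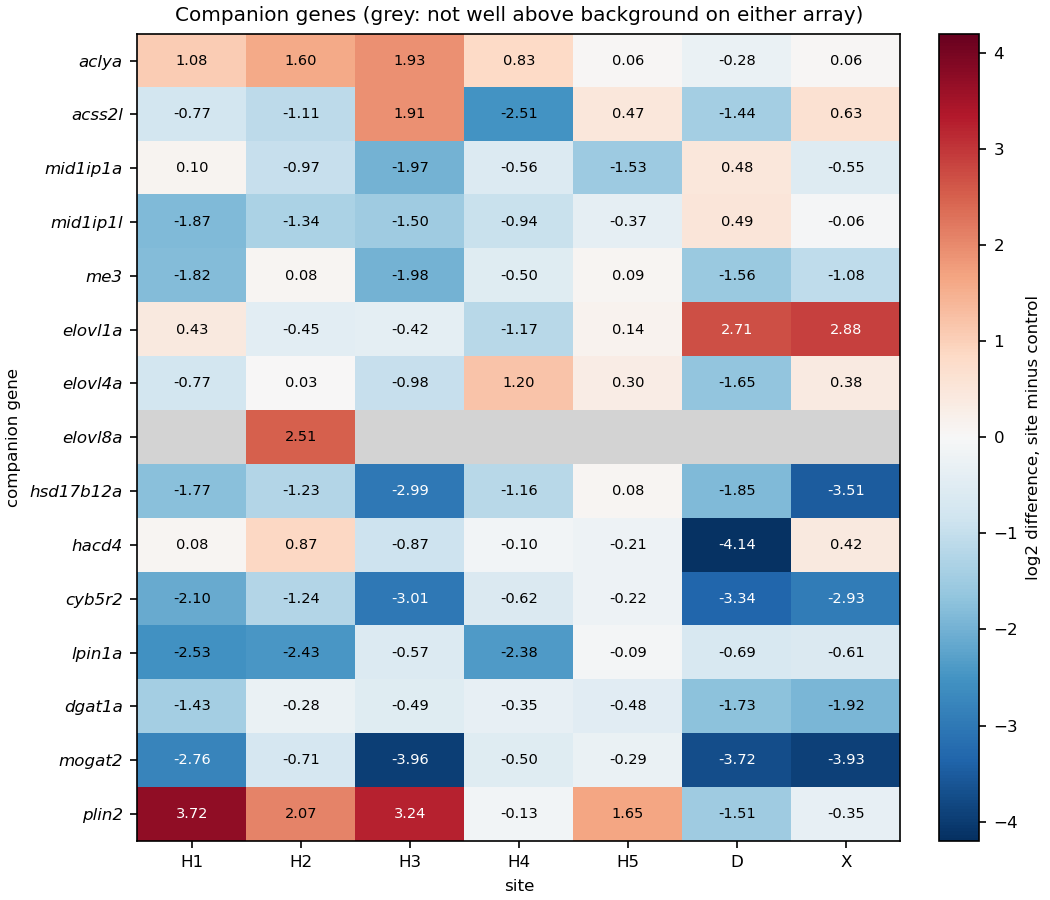
Log2 difference from the control (colour and printed value) of the 15 companion genes named by rule (rows) at each site (columns), with grey cells where no probe was well above background on either array, and values against a dim array that are not measured folds. The genes aclya and plin2 are high at H1 to H3, elovl1a is high at D (2.71) and X (2.88), and mogat2, cyb5r2 and hsd17b12a are low at H1, H3, D and X.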

How the data were processed

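RNA of pooled livers was labelled with Cy3 and hybridised to Agilent zebrafish 4x44K arrays. The authors scanned the arrays with Agilent Feature Extraction (10.7 in the labels' processing notes) and deposited the background-subtracted fluorescence intensity of each spot with a mark for spots well above background. They also deposited a table of log2 values, of which at least 99.97% per array lie within 0.01 of the log2 intensity minus 1 offset near the 75th percentile, while the methods name quantile normalization. The second arrays of the study were not analysed here. Sites were named from the labels.

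The log2 intensities were quantile normalized over the 8 arrays, spots of a probe were averaged, and probes were dropped from a comparison when 50% or more of their spots carried an outlier mark (46 to 188 probes per array, none of the members). A probe dim on 1 array of a comparison is given as "at least N-fold" against the lowest signal well above background there. Symbols came from a RefSeq table used for names only (26094 of 27655 RefSeq probes). No sequence table was at hand, so the planned promoter motifs were not searched.

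With 1 array per group no test was run. Genes were called at 2 fold, and at 3 fold at D. The members and all gene lists were chosen with earlier results of these data known. Of the companion list, genes past the threshold at 3 or more sites and the largest rise and fall per site were named by rule. The genes slc25a1a, pgd, cyb5b, insig1, insig2, hsd17b12b, mid1ip1b, thrsp, elovl1b and elovl8b were added after their values were seen. The rule for genes of like pattern was written for fasn and applied to elovl6 and elovl5 in its place.

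As alternatives, the deposited log2 table, 75th percentile scaling, normexp (offset 50), a filter on both arrays or none, marked spots kept, the brightest probe, a reference of the other arrays (their median), centring on the slide, 2 fold or 3 fold at all sites, and normalization without the D array (chosen after seeing the data) were run. Python 3.11.15, numpy 2.4.6, pandas 2.3.3, R 4.3.3 and limma 3.58.1 were used. The comparison was tested on simulated data, with changes larger than the threshold in genes well above background on all arrays. That test does not cover changes near the threshold, dim probes or differences between pools of fish.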

Additional observations from a re-analysis of the deposited data

Results flagged for a closer look

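Genes that passed the threshold as higher at 1 site or more and as lower at another, on probes well above background on both arrays, are given here with the distance between the highest and the lowest site on the log2 scale. With 1 array per site these differences were not tested. The elongase elovl6 spanned 4.03, from 1.02 at H2 to -3.01 at D. Its values at H2 and H3 (1.00) lay just past the threshold. The call as higher was lost under 6 of 10 alternatives at H2 and 4 of 10 at H3. At H2 every alternative that kept it left the value unchanged at 1.02. At H3 it was 1.17 with 75th percentile normalization and the authors' values, and 1.08 with slide centring. The other alternatives that kept it at H3 left the value unchanged. The gene mid1ip1b spanned 3.63, from 1.84 at H1 to -1.80 at X.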

How the results depend on the processing

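Of 578 values of single members under the alternatives, 529 stayed within the error of repeated spots and 0 called values reversed. The 529 include values that could not change. No member probe carried an outlier mark, and slide centring left H1, H2 and D as they were because the control shares their slide. The brightest probe changed nothing for a gene with 1 probe. The authors' values nearly repeated the 75th percentile normalization. The lower elovl6 at D (-3.43 to -2.79) and X (-2.32 to -1.79) and the lower scd at H4 (-1.79 to -1.11) passed under every alternative. The number of members past the threshold fell from 1 to 0 at H1 with the other arrays as reference and at 3 fold. At H2 it fell from 2 to 0 with 75th percentile normalization, the authors' values, normexp, the brightest probe, the other arrays as reference, 3 fold, and normalization without the D array. At H3 it fell from 3 to 0 with the other arrays as reference and at 3 fold, and to 1 with slide centring and without the D array. It fell from 2 to 1 at H4 with the filter on both arrays and slide centring, and at D with normexp, the filter on both arrays and no filter. At H5 it was 1 with the authors' values and with 75th percentile normalization, where 0 passed in the reported setting. The gene scdb was 0.67 at H4 with slide centring, and 1.09 (normexp) and 1.45 (no filter) at D, all short of the threshold.

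The count of companion genes was 7 in place of 11 at H1 with the other arrays as reference, and 5 in place of 9 at H2 and 8 in place of 13 at H3 at 3 fold. At H4 (5 reported) it was 1 with normexp, 3 with both arrays, 9 with the other arrays, 3 with slide centring and 2 at 3 fold. At H5 (2 reported) it was 1 with normexp, with both arrays, with the brightest probe and at 3 fold, and 6 with the other arrays. At D (8 reported) it was 5 with normexp and 15 at 2 fold. With the other arrays as reference, cyb5r2 at H2 (0.87) and hsd17b12a at H2 (0.53) and H4 (0.60) reversed. At D mogat2 was -0.82 on its brighter probe alone. The cause of these changes was not tested. The 75th percentile normalization moved the median of all genes at D from 0.15 to 0.34. No paired analysis was possible because each group has 1 array.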

Other observations

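Of the adipocyte markers, 3 of 5 passed as higher at H1 (median 1.80). These 3 were dim in the control and so had to be higher. Among them lepa, a leptin gene, was not well above background in the control or at 6 of the 7 sites. At H1 its log2 signal was 12.53 against 4.49 in the control, at least 58.7 fold higher. It was chosen after its values were seen, and whether it marks adipocytes in these livers was not tested. H1 also had the highest plin2 and elovl2 signals of the 8 arrays.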
